A study of Mus musculus with 7 samples.

Results

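Respiratory complexes II, III, IV and V carry electrons from succinate and ubiquinol to oxygen and turn the resulting proton gradient into ATP, and the nuclear genes for their subunits were examined in mouse left ventricles. Members were taken by gene name. They are *Sdha* to *Sdhd* for complex II, the *Uqcr* genes and *Cyc1* for complex III, the *Cox4* to *Cox8* subunits for complex IV and the *Atp5* genes for complex V, without pseudogenes. The count table lists 48 such genes, of which 4 belong to complex II, 9 to complex III, 18 to complex IV and 17 to complex V. Of these, 45 reached a minimum of 10 counts in 3 or more libraries and were tested.

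Complex II (succinate dehydrogenase) is also an enzyme of the citric acid cycle and is built from nuclear genes alone, whereas complexes III (cytochrome bc1), IV (cytochrome c oxidase) and V (ATP synthase) each combine nuclear subunits with a mitochondrially encoded core. Complexes III and IV pump protons across the inner mitochondrial membrane, and complex V lets them flow back through a rotating ring that drives ATP synthesis. Heart muscle obtains most of its ATP in this way, and several subunits of complex IV exist as a heart and skeletal muscle form and a more widely expressed form.

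RNA came from the left ventricles of 3 WT hearts (replicates 1, 3 and 4) and 4 hearts homozygous for A178D (replicates 1 to 4), with 1 sequencing library per heart. A178D replaces an alanine near the Z-disc end of titin, the giant protein that spans the sarcomere from Z-disc to M-band. The allele was made by CRISPR in C57BL/6N embryonic stem cells and crossed back to C57BL/6J, the strain that the labels give for both groups, and the age and sex of these 7 mice are not labelled. The comparison asks how transcript levels differ in left ventricles with the titin variant.

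The WT libraries held 51797208, 54245530 and 41102868 counts, and the A178D libraries held 40623300, 52345529, 42174448 and 33080675. Levels below are CPM, counts scaled to a common library size after TMM normalization, and values in a row are always in the order WT replicates 1, 3 and 4, then A178D replicates 1 to 4. A log2 fold change is A178D over WT from edgeR's quasi-likelihood test, SE is its standard error, and a gene is called where the Benjamini-Hochberg adjusted p over all 13894 tested genes is under 0.05.

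Marker genes were read first to check the tissue. All 6 listed genes of ventricular myocytes passed the filter, with *Myh6* between 35695 and 41671 CPM. The atrial genes *Myl7* and *Sln* had 18 and 4 counts over all 7 libraries together, and *Myl4* had 1.90, 1.89 and 1.85 CPM in WT and 4.01, 2.14, 2.60 and 3.06 in A178D hearts. The groups of *Myl4* did not overlap, with a log2 fold change of 0.65 (SE 0.23), an unadjusted p of 0.0134 and an adjusted p of 0.171 (Benjamini-Hochberg, edgeR's quasi-likelihood test), so it was not called, and the value with the trends removed was 0.53. *Ucp1*, the uncoupling protein of brown fat, a tissue that also expresses the muscle forms *Cox7a1* and *Cox8b*, had 6 counts in total. The fast skeletal myosin gene *Myh4* had 3. Every library had transcripts of the Y-linked gene *Ddx3y*, between 75.2 and 119 CPM.

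The relation between counts and transcript length was not the same in all libraries, and 2 of them stood apart. A gene's deviation in a library is its log2 level there minus its mean over the 7 libraries. Over all tested genes with a known length, the slope of this deviation per doubling of transcript length was 0.079, 0.015 and 0.018 in the WT libraries and -0.017, 0.017, 0.015 and -0.13 in the A178D libraries. WT replicate 1 therefore had relatively fewer counts on short transcripts and A178D replicate 4 relatively more, while the other 5 libraries had slopes near 0. Over the 45 tested members the slopes of these libraries were 0.071 in WT replicate 1 and -0.083 in A178D replicate 4. The subunits are encoded by short transcripts, with a median of 730 bases against 2728 over all tested genes.

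The trend carried over to the difference between the genotypes. In the 438 tested genes with transcripts under 750 bases the median log2 fold change was 0.11, in the 2110 genes from 750 to under 1500 bases it was 0.080, and in the 5306 genes from 1500 to under 3000 bases it was 0.020. Longer transcripts had negative medians, -0.037 in the 4827 genes from 3000 to under 6000 bases and -0.10 in the 1211 genes of 6000 bases and over. The members followed the same order, with medians of 0.087 in the 26 under 750 bases, 0.057 in the 9 of the next class and 0.0090 in the 10 from 1500 to under 3000 bases. The 412 genes under 750 bases that are not members had a median of 0.12. Across members, which are not independent replicates, Spearman's correlation of the log2 fold change with transcript length was -0.455, and across all tested genes it was -0.273. The members' fold changes are therefore also given from a second edgeR fit with each library's smooth trend with length and GC content removed, in which these correlations were 0.0709 and 0.0102.

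**Figure D1:**
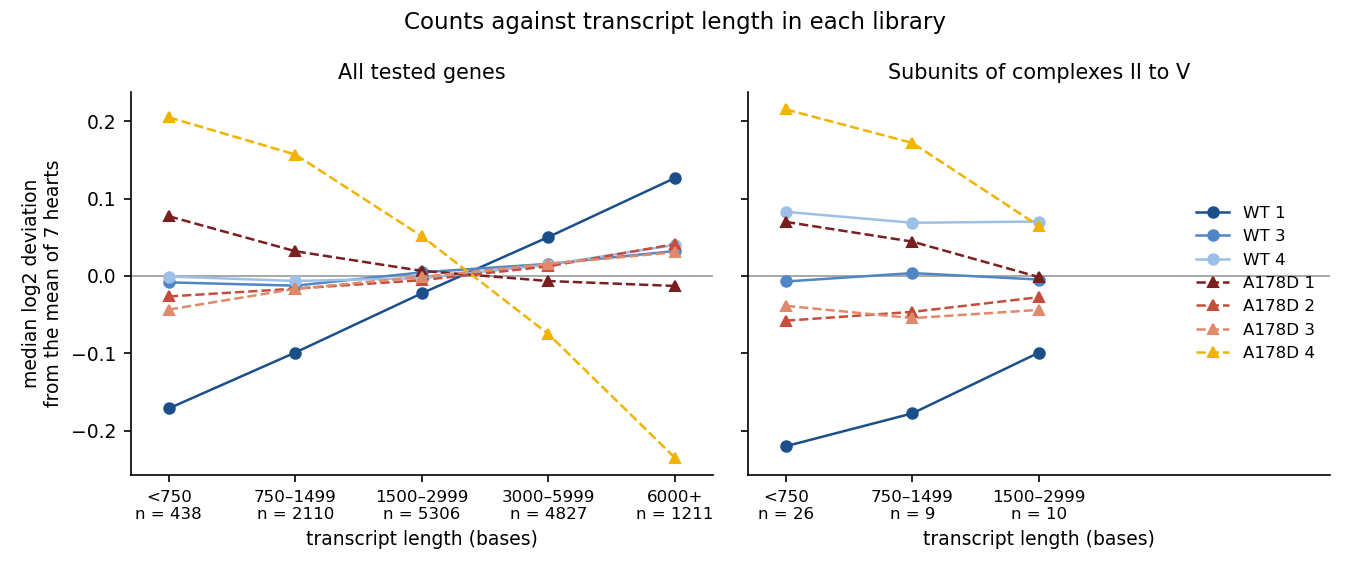
Median log2 deviation (y axis) of each library from the mean of the 7 hearts against transcript length class (x axis, bases), for all tested genes and for the members. In genes under 750 bases the median was -0.17 in WT replicate 1 and 0.20 in A178D replicate 4, and in members of that class it was -0.22 and 0.22.

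Members were mostly a little above 0 as counted and mostly a little below 0 once the trends were removed, and both medians depended on single hearts. EdgeR's test called 0 of the 45 members in either direction, where 2.35% of all tested genes were called, 1.04% higher and 1.31% lower. DESeq2 and limma-voom also called 0 members. An unadjusted p under 0.05 was reached by 4 members, all higher, and by 16.7% of all tested genes, 7.93% higher and 8.81% lower. DESeq2 and limma-voom each had 4 members higher at this level as well. The hearts of the 2 genotypes did not overlap in 4 members, all higher in A178D, beside 7.61% of all tested genes higher and 8.52% lower. A log2 fold change above 0 was found in 37 of the 45 members, or 82.2%, beside 50.5% of all tested genes. The median was 0.067 over the members and 0.0023 over all tested genes, and the members ranged from -0.23 to 0.69.

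After removal of the trends with length and GC content, 13 of the 45 members were above 0 and their median was -0.042. In that fit 1 member was higher and 3 were lower at an unadjusted p under 0.05, and 0 were called. Over all tested genes 48.4% were above 0 in that fit, with a median of -0.0065. Leaving out single hearts in that fit moved the members' median from -0.084 without WT replicate 1 to -0.00058 without WT replicate 4. Members lower at an unadjusted p under 0.05 in it then numbered 9 without WT replicate 1, 6 without A178D replicate 4, 2 without A178D replicate 2 and 1 without each of the other hearts, with 0 or 1 higher and 0 called. Of all tested genes 8.03% were higher and 10.4% lower at that level with the trends removed, 9.02% and 11.1% when WT replicate 1 was also left out, and 7.30% and 10.99% when A178D replicate 4 was. Without both WT replicate 1 and A178D replicate 4, a setting chosen after seeing the data, the median as counted was -0.048, with 0 members higher and 5 lower at that level, beside 9.41% of all tested genes higher and 9.87% lower. Leaving out WT replicate 1 alone brought the median to 0.0015 and the number of members higher at that level to 0. Without A178D replicate 4 alone the median was 0.018 with 1 member higher and 1 lower, and without WT replicate 3 it was 0.082 with 2 higher and 0 lower. In the other direction, the median was 0.12 without WT replicate 4, with 4 members higher, and 0.098 without A178D replicate 2 or A178D replicate 3, with 5 higher in each. Over the fits as counted without single hearts, 6.08% to 7.84% of all tested genes were higher and 6.44% to 9.01% lower at that level.

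**Figure D2:**
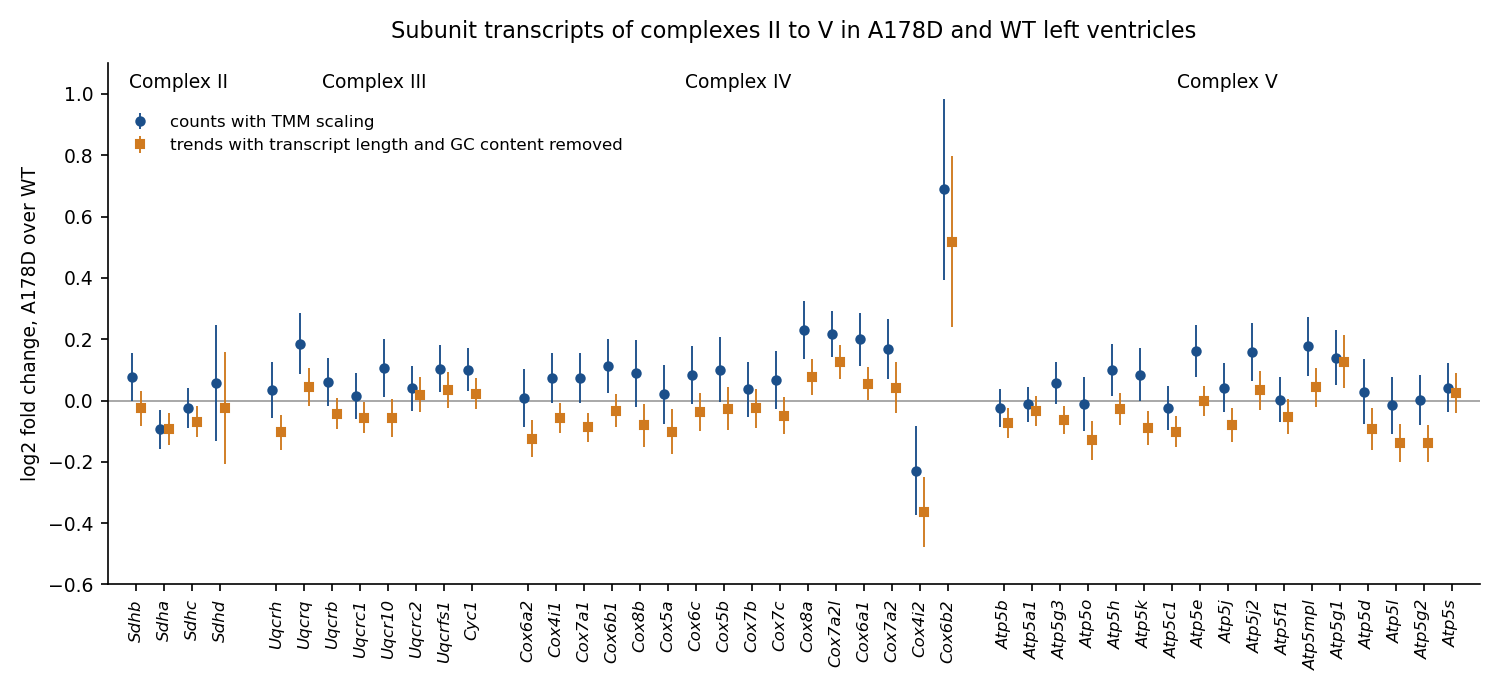
Log2 fold change of A178D over WT (y axis) for each tested subunit gene, grouped by complex, as counted and after removal of the trends with length and GC content, with standard errors. Most members lie just above 0 as counted and just below 0 with the trends removed, with medians of 0.067 and -0.042.

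The same pair of hearts took the ends of the range in most members. As counted, WT replicate 1 was the lowest of the 7 hearts in 37 of 45 members and the highest in 0, while A178D replicate 4 was the highest in 33 and the lowest in 1. Over all tested genes WT replicate 1 was the lowest heart in 16.4% and the highest in 15.3%, and A178D replicate 4 was the highest in 23.3% and the lowest in 24.3%. After the trends were removed, WT replicate 4 was the highest heart in 25 members and A178D replicate 4 in 13. The lowest heart was then WT replicate 1 in 13 members, A178D replicate 2 in 12, A178D replicate 1 in 8 and A178D replicate 3 in 7.

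Complexes were compared by the mean deviation of their tested subunits in each heart. Complex IV deviated by -0.22, -0.058 and 0.070 in WT and by 0.034, -0.044, -0.044 and 0.27 in A178D hearts. Complex III had -0.17, -0.026 and 0.058 in WT and 0.052, -0.061, -0.036 and 0.18 in A178D hearts. Complex V had -0.17, 0.0067 and 0.069 in WT and 0.031, -0.048, -0.046 and 0.15 in A178D hearts. In these 3 complexes WT replicate 1 was lowest and A178D replicate 4 highest, and the genotypes overlapped. Complex II had a narrower range, with -0.058, 0.0068 and 0.049 in WT and 0.032, 0.014, -0.11 and 0.069 in A178D hearts, and its lowest heart was A178D replicate 3, where the barely counted *Sdhd* weighs as much as the other subunits. Without *Sdhd* and *Cox6b2*, the tested members with the fewest counts, left out in a setting chosen after seeing the data, complex II had -0.079, 0.0079 and 0.094 in WT and -0.0038, -0.029, -0.045 and 0.054 in A178D hearts, with WT replicate 1 lowest and WT replicate 4 highest. Complex IV then had -0.20, 0.0043 and 0.060 in WT and 0.025, -0.046, -0.067 and 0.23 in A178D hearts. Over complexes II to V together the mean was -0.045 in WT (SD 0.12, n = 3) and 0.034 in A178D hearts (SD 0.11, n = 4), a difference smaller than the spread within either genotype. With the trends removed, the 7 values for complexes II to V were -0.046, 0.00063 and 0.093 in WT and -0.015, -0.050, -0.039 and 0.057 in A178D hearts.

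The complexes also differed in median fold change. Complex IV, with a median length of 625.5 bases, had a median log2 fold change of 0.086 with 15 of 16 subunits above 0. Complex V, with 747.5 bases, had 0.042 with 12 of 17 above 0, and complex III, with 949 bases, had 0.081 with 8 of 8 above 0. Complex II, with the longest transcripts at 1612 bases, had 0.016 with 2 of 4 above 0. These medians moved with single hearts. For complexes II, III, IV and V in turn they were -0.015, 0.016, 0.010 and -0.012 without WT replicate 1, -0.013, 0.036, 0.022 and 0.00029 without A178D replicate 4, and 0.013, 0.13, 0.17 and 0.082 without WT replicate 4. Complex II had 0.0054, -0.00049 and 0.044 without A178D replicates 1, 2 and 3. With the trends removed the medians were -0.047 for complex II, -0.012 for complex III, -0.036 for complex IV and -0.064 for complex V, and 0, 4, 5 and 4 of their subunits were above 0. Without WT replicate 1 these medians were -0.075, -0.038, -0.089 and -0.093, and without WT replicate 4 -0.042, 0.034, -0.00053 and -0.030, while complex III was also above 0, at 0.0064, without A178D replicate 2. The 36 subunits of complex I, which feeds electrons from NADH into the same chain, had a median of 0.13 with 35 above 0, from -0.050 in *Ndufs1* to 0.22 in *Ndufv3*, and of 0.0064 with 19 above 0 after the trends were removed. No test of a difference between complexes was made.

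**Figure D3:**
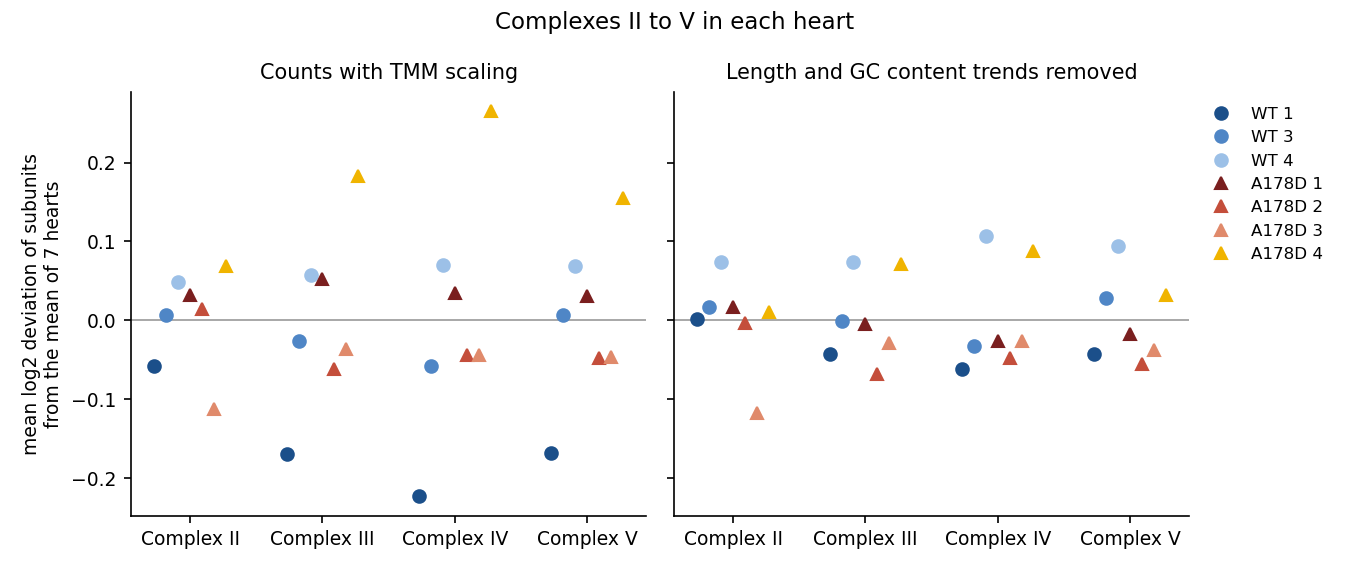
Mean log2 deviation (y axis) of the subunits of complexes II to V (x axis) in each of the 7 hearts, as counted and after removal of the trends with length and GC content. As counted, complex IV ranged from -0.22 in WT replicate 1 to 0.27 in A178D replicate 4.

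The members took 4.14, 4.51 and 4.65% of all counts in the WT and 4.50, 4.35, 4.36 and 4.81% in the A178D libraries. Complex V had the largest share, 2.35 ± 0.114% in WT (SD, n = 3), and the A178D value was 2.37 ± 0.0854% (SD, n = 4). Complex IV had 0.992 ± 0.0920% in WT and 1.03 ± 0.0863% in A178D, and complex III 0.694 ± 0.0404% and 0.724 ± 0.0403%. Complex II had 0.393 ± 0.0201% in WT and 0.381 ± 0.00243% in A178D hearts. In each complex the genotypes differed by less than the larger of the SDs.

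In complex II, levels of the subunits were compared per kilobase of transcript in WT hearts. *Sdhb* was the most abundant at 942 ± 83.0 CPM per kilobase (SD, n = 3), followed by *Sdha* at 782 ± 49.8 and *Sdhc*, a membrane anchor, at 287 ± 8.75. *Sdhd*, the other membrane anchor, had only 2.03 ± 0.0761 CPM per kilobase although the enzyme holds both anchors in equal number. No near-identical copy of it was found among the annotated transcripts of other genes, and the rest of the genome was not searched. Why the count of *Sdhd* is so low was not tested.

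*Sdha* (ENSMUSG00000021577, chromosome 13) encodes the flavoprotein that oxidises succinate. Its level was 2145, 2234 and 2427 CPM in WT and 2177, 2149.7, 2117 and 2058 in A178D hearts. The A178D hearts lay close together, 2 of them above the lowest WT heart and all below the others, so that the genotypes overlapped. *Sdha* had the lowest log2 fold change of the complex, -0.094 (SE 0.064) with an adjusted p of 0.499 (Benjamini-Hochberg, edgeR's quasi-likelihood test). Its transcript is the longest among the members, at 2900 bases, and with the trends removed the value was -0.092.

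*Sdhb* (ENSMUSG00000009863, chromosome 4) encodes the iron-sulfur subunit that passes the electrons on. It had 974, 1092 and 1162 CPM in WT and 1147, 1071, 1072 and 1246 in A178D hearts. WT replicate 1 was lowest and A178D replicate 4 highest, with the others interleaved. On the log2 scale the fold change was 0.076 (SE 0.078), the highest of the complex, and -0.026 with the trends removed. *Sdhc* and *Sdhd* had log2 fold changes of -0.025 and 0.057 as counted, and of -0.069 and -0.025 with the trends removed.

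Complex III holds catalytic subunits with haem or iron-sulfur groups, large core proteins and small accessory subunits. *Uqcrh*, the acidic hinge protein at the cytochrome c side, was the most abundant per kilobase in WT hearts at 1559 ± 172 CPM per kilobase (SD, n = 3), and *Cyc1* the least at 654 ± 23.8. *Uqcr11*, also a subunit of the complex, had 3 counts over all libraries and did not enter the test. It has 2 near-identical copies in the genome, and how reads that fit several places were counted is not given in the sources, so why its count is so low was not tested.

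*Cyc1* (ENSMUSG00000022551, chromosome 15) encodes cytochrome c1, the haem protein that hands electrons to cytochrome c. It had 953, 1007 and 1021 CPM in WT and 1026, 1022, 1043 and 1171 in A178D hearts. All A178D hearts lay above all WT hearts, with A178D replicate 2 just above WT replicate 4. It is named after its values were seen, since it is the only subunit outside complex IV whose groups did not overlap. Its log2 fold change was 0.10 (SE 0.069) with an adjusted p of 0.502 (Benjamini-Hochberg, edgeR's quasi-likelihood test), and the value with the trends removed 0.022. The Rieske iron-sulfur protein gene *Uqcrfs1* had overlapping groups and a log2 fold change of 0.10 as counted and 0.034 with the trends removed.

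*Uqcrc1* (ENSMUSG00000025651, chromosome 9) encodes the larger core protein that faces the matrix. Its level was 1472, 1628 and 1565 CPM in WT and 1491, 1525, 1497 and 1775 in A178D hearts. A178D replicate 4 stood far above the other A178D hearts, which lay between the lowest and the second WT heart. This gave a log2 fold change of 0.016 (SE 0.075), the lowest of the complex, and it was -0.048 without A178D replicate 4. With the trends removed it was -0.056. Its counts are shared with a second entry of the table that has no name, and they were counted once.

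*Uqcrq* (ENSMUSG00000044894, chromosome 11) encodes a small ubiquinone-binding accessory subunit. Its level was 498, 603 and 602 CPM in WT and 659, 592, 575 and 755 in A178D hearts. WT replicate 1 was lowest, A178D replicates 1 and 4 were highest, and the groups overlapped in the middle. The log2 fold change of 0.19 (SE 0.099) was the highest of the complex, with an adjusted p of 0.371 (Benjamini-Hochberg, edgeR's quasi-likelihood test). It was 0.10 without WT replicate 1 or A178D replicate 4, and 0.044 with the trends removed.

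For *Uqcrh* (ENSMUSG00000063882, chromosome 4) the levels were 649.6, 761 and 809 CPM in WT and 787, 679.6, 715 and 851 in A178D hearts. The groups overlapped over most of their range. A178D over WT gave a log2 value of 0.035 as counted and -0.10 with the trends removed. *Uqcrh* and *Uqcrq* are among the 4 tested genes of complex III with a near-identical copy elsewhere in the genome, so reads may have been split between copies.

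Complex IV includes isoforms that the heart hardly uses. *Cox6a2* led at 3177 ± 368 CPM per kilobase in WT hearts (SD, n = 3), then *Cox4i1* at 2147 ± 173 and *Cox7a1* at 1622 ± 111. The forms known from other tissues lay far lower, *Cox8a* at 207 ± 12.8, *Cox6a1* at 116 ± 7.50, *Cox7a2* at 26.6 ± 3.06, *Cox4i2* at 15.0 ± 1.03 and *Cox6b2* at 3.60 ± 1.56 CPM per kilobase. *Cox7b2* and *Cox8c*, both known from testis, had 36 and 0 counts over the 7 libraries and were not tested. All 4 of the 45 tested members with an unadjusted p under 0.05 belong to complex IV, beside 7.93% of all tested genes higher at that level. Of these, *Cox8a*, *Cox6a1* and *Cox6b2* encode the less abundant isoform of a pair. With the trends removed their unadjusted p by edgeR was 0.212, 0.332 and 0.0854. Among the other less abundant forms, *Cox7a2* did not pass (unadjusted p 0.108, edgeR) and *Cox4i2* was below 0.

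*Cox7a2l* (ENSMUSG00000024248, chromosome 17) encodes a relative of the subunit 7a family that links complex III to complex IV in supercomplexes, and C57BL/6 mice are known to make a shortened protein. Its level was 202, 222 and 219 CPM in WT and 255, 231, 235 and 275 in A178D hearts. No A178D heart was as low as any WT heart, and A178D replicates 1 and 4 were the highest. The fold change, on the log2 scale, was 0.22 (SE 0.076) with an unadjusted p of 0.0131 and an adjusted p of 0.170 (Benjamini-Hochberg, edgeR's quasi-likelihood test). With the trends removed it was 0.12 with an unadjusted p of 0.0399, the only one of the 4 members that stayed under 0.05. By the same edgeR test it was 0.12 with an unadjusted p of 0.0518 when the length trend alone was removed. Without WT replicate 1 and A178D replicate 4, left out after seeing the data, it was 0.13 with an unadjusted p of 0.0699. Leaving out single hearts gave 0.17 to 0.25, with an unadjusted p under 0.05 in 6 of 7 fits. *Cox7a2l* has 1 near-identical copy in the genome.

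*Cox8a* (ENSMUSG00000035885, chromosome 19) encodes the widely expressed form of the small membrane subunit 8. It was counted at 106, 116 and 120.0 CPM in WT and 123, 122, 128 and 161 in A178D hearts. The groups did not overlap, but 3 A178D hearts lay just above the highest WT heart and A178D replicate 4 far above all. On the log2 scale the fold change was 0.23 (SE 0.096) with an unadjusted p of 0.0313 and an adjusted p of 0.249 (Benjamini-Hochberg, edgeR's quasi-likelihood test). It was 0.13 without A178D replicate 4 and 0.078 with the trends removed. The heart form *Cox8b* (ENSMUSG00000025488, chromosome 7) had 475, 605 and 639 CPM in WT and 641, 575, 524 and 698 in A178D hearts. Its groups overlapped widely, and the log2 fold change was 0.089 as counted and -0.081 with the trends removed.

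*Cox6a1* (ENSMUSG00000041697, chromosome 5) encodes the widely expressed form of subunit 6a, which sits where the enzyme forms dimers. Its level was 61.5, 69.5 and 68.0 CPM in WT and 72.3, 71.4, 73.5 and 87.6 in A178D hearts. Again the groups did not overlap and A178D replicate 4 was far above the rest. Its log2 fold change was 0.20 (SE 0.085) with an unadjusted p of 0.0355 and an adjusted p of 0.261 (Benjamini-Hochberg, edgeR's quasi-likelihood test). It was 0.13 without A178D replicate 4 and 0.055 with the trends removed. The heart form *Cox6a2* (ENSMUSG00000030785, chromosome 7) had 1893, 2201 and 2388 CPM in WT and 2197, 2086, 1924 and 2483 in A178D hearts. WT replicate 1 was lowest and A178D replicate 4 highest, and the log2 fold change was 0.0078 as counted and -0.12 with the trends removed.

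*Cox6b2* (ENSMUSG00000051811, chromosome 7) encodes the testis form of subunit 6b and was barely expressed. It had 1.39, 0.990 and 2.31 CPM in WT and 2.23, 1.95, 2.44 and 3.43 in A178D hearts. WT replicate 4 lay within the A178D range and the other WT hearts below it. Its log2 fold change of 0.69 (SE 0.29) was the largest of all members, with an unadjusted p of 0.0350 and an adjusted p of 0.260 (Benjamini-Hochberg, edgeR's quasi-likelihood test). It ranged from 0.44 without WT replicate 3 to 1.07 without WT replicate 4. The main form *Cox6b1* (ENSMUSG00000036751, chromosome 7) had 675, 811 and 844 CPM in WT and 859, 772, 792 and 936 in A178D hearts. Those groups overlapped, with a log2 fold change of 0.11 as counted and -0.033 with the trends removed.

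*Cox7a1* (ENSMUSG00000074218, chromosome 7), the heart and muscle form of subunit 7a, had 657, 749 and 731 CPM in WT and 745, 692, 710.2 and 849 in A178D hearts. Its groups overlapped, and the log2 fold change was 0.073 as counted and -0.088 with the trends removed. The wider form *Cox7a2* (ENSMUSG00000032330, chromosome 9) had 15.9, 17.0 and 19.8 CPM in WT and 21.1, 19.1, 18.8 and 19.9 in A178D hearts. WT replicate 4 fell among the A178D hearts, and the log2 fold change was 0.17 as counted and 0.042 with the trends removed.

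*Cox4i1* (ENSMUSG00000031818, chromosome 8) encodes the main form of subunit 4, through which ATP and ADP are known to tune the enzyme. It had 1471, 1708 and 1684 CPM in WT and 1659, 1602, 1613 and 1949 in A178D hearts. A178D replicate 4 lay far above the other A178D hearts, which overlapped with WT. This gave a log2 fold change of 0.073 as counted, 0.0034 without A178D replicate 4 and -0.057 with the trends removed.

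*Cox4i2* (ENSMUSG00000009876, chromosome 2), an alternative form of subunit 4 known from lung and from pericytes, was the only member of complex IV with a log2 fold change below 0. Its level was 10.3, 11.8 and 10.7 CPM in WT and 7.56, 9.64, 8.18 and 12.04 in A178D hearts. A178D replicates 1, 2 and 3 lay below all WT hearts, and A178D replicate 4 above them. A178D over WT gave a log2 value of -0.23 (SE 0.15) with an adjusted p of 0.469 (Benjamini-Hochberg, edgeR's quasi-likelihood test). With the trends removed it was -0.36 with an unadjusted p of 0.00682 and an adjusted p of 0.101 by the same edgeR test, the smallest of any member in that fit. As counted it was -0.37 without A178D replicate 4, -0.17 without WT replicate 3 or A178D replicate 3, and -0.14 without A178D replicate 1. Over its alternatives the adjusted p of edgeR, DESeq2 and limma-voom ranged from 0.0925 to 0.722.

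Markers of smooth muscle and pericytes were read beside *Cox4i2*. The 5 listed genes summed to 698, 699 and 652 CPM in WT and 435, 504, 526 and 465 in A178D hearts, and none was at 0. All 5 had log2 fold changes below 0 with a median of -0.59. EdgeR and limma-voom called 3 of them lower, and DESeq2 all 5, with *Pdgfrb* and *Rgs5* besides. The values ranged from -0.67 in *Myh11* to -0.33 in *Rgs5*. Their median was -0.61 with the trends removed, and edgeR then called all 5 lower. *Acta2*, with the highest CPM among them, had 177, 213 and 183 CPM in WT and 108, 127, 134 and 137 in A178D hearts. It fell by 0.59 on the log2 scale (adjusted p 0.00587, Benjamini-Hochberg, edgeR's quasi-likelihood test), and the other genes called by edgeR, *Tagln* and *Myh11*, fell by 0.62 and 0.67. *Myh11* was no longer called without WT replicate 3 or WT replicate 4, with log2 fold changes of -0.73 and -0.71 and edgeR adjusted p of 0.0501 and 0.0547. In these bulk samples, fewer cells of a type and less RNA per cell cannot be told apart, and the part of these markers in the *Cox4i2* values was not tested.

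Above 0 were 3 of 6 ventricular genes (from -0.11 in *Myh6* to 0.13 in *Actc1*), 1 of 4 endothelial (from -0.13 in *Tek* to 0.078 in *Kdr*), 3 of 4 fibroblast (from -0.060 in *Pdgfra* to 0.45 in *Col1a1*), 3 of 4 macrophage (from -0.32 in *Cd163* to 0.33 in *Adgre1*), 1 of 3 tested skeletal muscle (from -0.61 in *Mylpf* to 0.088 in *Ckm*) and 2 of 2 tested erythrocyte genes (0.080 in *Hba-a1* and 0.13 in *Alas2*), and edgeR and limma-voom called 0 of them. Of these, 1 ventricular, 1 fibroblast and 1 macrophage gene were higher and 1 macrophage gene was lower at an unadjusted p under 0.05, and DESeq2 called *Col1a1* and *Adgre1* higher. After removal of the trends, 1 of the 6 ventricular genes was above 0, with a median of -0.078, and *Myl2*, *Tnnt2* and *Tnni3*, named after their values were seen, had log2 fold changes of -0.10, -0.15 and -0.13 with an unadjusted p under 0.05 and without a call by edgeR. In that fit 1 endothelial, 1 fibroblast, 3 macrophage, 1 skeletal muscle and 1 erythrocyte gene were above 0, and edgeR called 1 of these genes, *Col1a1*, which rose by 0.52 (adjusted p 0.0155, Benjamini-Hochberg). Of the 4 tested fat genes 2 were above 0 and 2 below, from -0.53 in *Cfd* to 0.43 in *Cidea*, which is known for lipid droplets and was the only one called by edgeR, DESeq2 or limma-voom. *Cidea* had 32.6, 26.6 and 31.0 CPM in WT and 40.0, 39.3, 41.6 and 41.4 in A178D hearts. All A178D hearts lay above all WT hearts, and it rose by 0.43 on the log2 scale with an adjusted p of 0.0177 (Benjamini-Hochberg, edgeR's quasi-likelihood test). That call was lost without WT replicate 3 (log2 fold change 0.35, edgeR adjusted p 0.115), WT replicate 4 (0.45, 0.0718), A178D replicate 1 (0.44, 0.0557) or A178D replicate 3 (0.42, 0.0536), and with the trends removed (0.33, 0.0616). Over all alternatives *Cidea* was called in 11 of 17.

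Complex V consists of a catalytic head, a central and a peripheral stalk and a membrane ring. *Atp5b*, the catalytic beta subunit of the head, had the highest level per kilobase of all members in WT hearts at 3619 ± 194 CPM per kilobase (SD, n = 3), and *Atp5s*, a coupling factor, the lowest of the complex at 18.2 ± 1.41. All 17 genes passed the filter, and 9 of them have near-identical copies in the genome, up to 14 for *Atp5l*, a membrane subunit. None reached an unadjusted p under 0.05 as counted.

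*Atp5b* (ENSMUSG00000025393, chromosome 10) had 6523, 7029 and 7249.6 CPM in WT and 6671, 6742, 6606 and 7252 in A178D hearts. WT replicate 1 was the lowest and A178D replicate 4 the highest, just above WT replicate 4. The fold change, on the log2 scale, was -0.024 (SE 0.063), the lowest of the complex, and -0.073 with the trends removed. It was 0.0089 without WT replicate 4. *Atp5a1*, the alpha subunit that alternates with beta around the head, had a log2 fold change of -0.013.

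*Atp5mpl* (ENSMUSG00000021290, chromosome 12) encodes a small proteolipid at the base of the enzyme. Its level was 212, 261 and 264 CPM in WT and 308, 249, 256 and 298 in A178D hearts. A178D replicates 1 and 4 were highest, WT replicate 1 was lowest and the others were mixed. The log2 fold change of 0.18 (SE 0.097) was the highest of the complex, with an adjusted p of 0.385 (Benjamini-Hochberg, edgeR's quasi-likelihood test). It was 0.083 without WT replicate 1 and 0.043 with the trends removed.

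The ring subunit c is encoded by 3 genes that yield the same mature protein. *Atp5g3* (ENSMUSG00000018770, chromosome 2), the most abundant, had 1567, 1676 and 1701 CPM in WT and 1690.2, 1649.9, 1646 and 1876 in A178D hearts. *Atp5g1* (ENSMUSG00000006057, chromosome 11) had 1035, 1219 and 1215 CPM in WT and 1324, 1193, 1135 and 1445 in A178D hearts. *Atp5g2* (ENSMUSG00000062683, chromosome 15) had 89.7, 106 and 107 CPM in WT and 97.5, 104, 94.0 and 109 in A178D hearts. In all 3 genes WT replicate 1 was lowest, A178D replicate 4 highest and the groups overlapped. Their log2 fold changes were 0.058, 0.14 and 0.00044 as counted and -0.064, 0.13 and -0.14 with the trends removed. That of *Atp5g1* was 0.069 without WT replicate 1 and 0.074 without A178D replicate 4. The length of *Atp5g1* differs widely between its transcripts, so its value with the trends removed depends on the length used, and *Atp5g1* and *Atp5g2* have near-identical copies.

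In the fit with the trends removed, the members lower at an unadjusted p under 0.05 were *Cox4i2*, *Atp5l* and *Atp5g2*. *Atp5l*, named only because it was under 0.05 in this fit and so picked after its values were seen, had a log2 fold change of -0.14 there with an unadjusted p of 0.0442, and *Atp5g2* an unadjusted p of 0.0368 by the same edgeR test.

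Within a heart, the ratio of paired isoforms does not depend on the scaling of the library. The 7 ratios were compared with an exact permutation test over hearts, two-sided, whose smallest possible p is 0.0286. The log2 ratio of *Cox6a1* to *Cox6a2* was -4.94, -4.98 and -5.13 in WT and -4.93, -4.87, -4.71 and -4.82 in A178D hearts. All 4 A178D hearts lay above the WT hearts, A178D replicate 1 just above WT replicate 1, and the mean difference was 0.19 with an exact p of 0.0571, adjusted over the 7 ratios to 0.267 by Benjamini-Hochberg. Per kilobase, *Cox6a1* made up 3.54 ± 0.233% of the pair in WT (SD, n = 3), and the A178D value was 4.02 ± 0.246% (SD, n = 4). The difference was 0.18 with the trends removed and lay between 0.13 and 0.23 when single hearts were left out.

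The log2 ratio of *Cox4i2* to *Cox4i1* was -7.16, -7.18 and -7.29 in WT and -7.78, -7.38, -7.62 and -7.34 in A178D hearts. Here all A178D hearts lay below the WT hearts, with a difference of -0.32 (exact permutation p 0.0857, adjusted 0.267). *Cox4i2* made up 0.693 ± 0.0338% of the pair per kilobase in WT and 0.561 ± 0.0791% in A178D hearts. The difference was also -0.32 with the trends removed.

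The other five ratios overlapped between the genotypes. For *Cox6b2* to *Cox6b1* the difference was 0.62 (exact permutation p 0.114), with 0.224% and 0.330% of the pair per kilobase in WT and A178D hearts. The WT log2 ratios of this pair were -8.92, -9.68 and -8.51, with WT replicate 3 far below the others. *Cox7a2* to *Cox7a1* differed by 0.10 (exact permutation p 0.286) and *Cox8a* to *Cox8b* by 0.13 (exact permutation p 0.257). *Cox8a* was the most used of the wider forms, at 11.6 ± 1.01% of its pair per kilobase in WT and 12.6 ± 1.13% in A178D hearts. *Atp5g1* to *Atp5g3* differed by 0.081 (exact permutation p 0.257) and *Atp5g2* to *Atp5g3* by -0.054 (exact permutation p 0.314). With the trends removed the differences of these ring subunit pairs were 0.19 and -0.076. A single ratio at the smallest possible p would be adjusted to 0.200, so that no ratio could have passed alone.

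**Figure D4:**
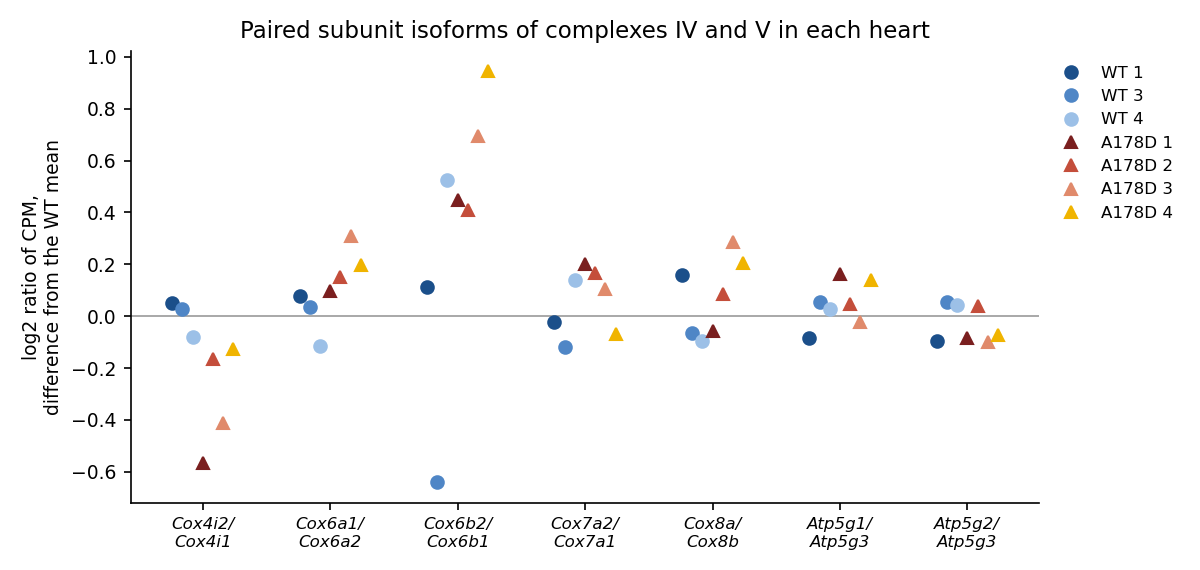
Log2 ratio of CPM between paired isoforms in each heart, as the difference from the WT mean (y axis), for 7 pairs (x axis), with 3 WT and 4 A178D hearts. The A178D hearts lay above all WT hearts for *Cox6a1* to *Cox6a2* and below them for *Cox4i2* to *Cox4i1*.

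The complexes are put together by dedicated assembly factors that are not part of the finished enzymes. All 4 factors of complex II were above 0, with a median log2 fold change of 0.22 as counted and 0.23 with the trends removed, and 3 of them had an unadjusted p under 0.05. *Sdhaf4* (ENSMUSG00000026154, chromosome 1), which guards the flavoprotein before it joins the iron-sulfur subunit, had 33.8, 30.6 and 33.2 CPM in WT and 46.2, 36.8, 41.3 and 44.5 in A178D hearts. All A178D hearts lay above all WT hearts. *Sdhaf4* rose by 0.37 on the log2 scale (SE 0.09) with an adjusted p of 0.0464 (Benjamini-Hochberg, edgeR's quasi-likelihood test). The call was close to the threshold and kept in 1 of 7 fits that left out a heart, the one without A178D replicate 2 (edgeR adjusted p 0.0282). Leaving out WT replicates 1, 3 and 4 gave edgeR adjusted p of 0.0516, 0.211 and 0.128 in turn, and leaving out A178D replicates 1, 3 and 4 gave 0.151, 0.0907 and 0.0587. The log2 fold change stayed between 0.33 and 0.44 in these fits, and with the trends removed it was 0.26 with an adjusted p of 0.0955 by edgeR. Over all alternatives *Sdhaf4* was called in 9 of 17. The smallest value of the list was 0.14, in *Sdhaf3*.

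Assembly factors of the other complexes were mostly above 0 as well, beside 50.5% of all tested genes above 0 and 7.93% higher and 8.81% lower at an unadjusted p under 0.05. EdgeR and limma-voom called 0 of them, and DESeq2 called *Coa4* of complex IV and *Atpif1* of complex V higher. For complex III 6 of 6 were above 0 with a median of 0.10, from 0.049 in *Ttc19* to 0.25 in *Uqcc3*, the only one with an unadjusted p under 0.05, and with the trends removed the median was 0.040 with 5 of 6 above 0. *Uqcc3* had 0.13 in that fit, and 0 factors of complex III were under 0.05. Complex IV had 22 of 24 tested factors above 0 with a median of 0.14, 7 of them with an unadjusted p under 0.05 and all 7 higher. They ranged from -0.12 in *Lrpprc*, which stabilises mitochondrial transcripts, to 0.41 in *Coa4*, a twin cysteine motif protein of the intermembrane space. *Coa4* had 8.28, 8.71 and 7.75 CPM in WT and 10.7, 10.4, 11.3 and 11.5 in A178D hearts. Its groups did not overlap, and its adjusted p (Benjamini-Hochberg, edgeR's quasi-likelihood test) was 0.0618. With the trends removed the complex IV factors had a median of 0.084, with 17 of 24 above 0. In that fit 4 of them were higher and 0 lower at an unadjusted p under 0.05, beside 8.03% and 10.4% of all tested genes. For complex V 4 of 5 were above 0, from -0.063 in *Atpaf2* to 0.30 in *Atpif1*, the inhibitor that stops the enzyme from hydrolysing ATP, and 2 of them had an unadjusted p under 0.05. Of these 5 genes, 3 were above 0 with the trends removed, with a median of 0.090. Only 1 of them, *Atpif1* at 0.15, had an unadjusted p under 0.05 in that fit.

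A list of electron carrier genes was also read, of which *Etfa*, *Etfb*, *Etfdh* and *Cycs* were tested. All 4 tested carriers were above 0 with a median of 0.10, from 0.013 in *Etfa* to 0.15 in *Cycs*, which encodes the cytochrome c of somatic cells. EdgeR, DESeq2 and limma-voom called 0 of them, and 1 had an unadjusted p under 0.05. Their median was 0.038 with the trends removed, and 2 of 4 were then above 0. The 13 mitochondrially encoded subunits were listed at 0 in every library, so the core subunits of complexes III, IV and V could not be set beside the nuclear ones.

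Transcription of the subunit genes is known to be driven by the factors NRF1, GABPA and ERRA with coactivators of the PGC-1 family. Of 18 listed regulators 8 were above 0, with a median of -0.018 as counted and 0.0048 with the trends removed. At an unadjusted p under 0.05, *Tfam* and *Polrmt* (0.19) were higher and *Ppara*, *Ppargc1a* and *Yy1* (-0.20) lower as counted, with groups that did not overlap. Over all tested genes 7.61% did not overlap with A178D higher and 8.52% with A178D lower, and 7.93% were higher and 8.81% lower at that p. With the trends removed, 1 regulator was higher and 3 were lower at an unadjusted p under 0.05, beside 8.03% and 10.4% of all tested genes. *Polrmt* was the higher one, *Ppara*, *Ppargc1a* and *Nrf1* (-0.19) were lower, and *Tfam* and *Yy1* (-0.13) did not pass. *Polrmt*, *Yy1* and *Nrf1* are named after their values were seen. *Ppara* (ENSMUSG00000022383, chromosome 15), a nuclear receptor for fatty acids, had 148, 136 and 152 CPM in WT and 105, 117, 115 and 109 in A178D hearts. All A178D hearts lay below all WT hearts. *Ppara* fell by 0.38 on the log2 scale (SE 0.07) with an adjusted p of 0.0144 (Benjamini-Hochberg, edgeR's quasi-likelihood test), and by 0.40 with the trends removed. The call was lost without WT replicate 4 (edgeR adjusted p 0.0772) and without A178D replicate 1 (0.0566), and kept without each of the other 5 hearts. The largest value of the list as counted was 0.23 in *Tfam*, which packages and transcribes mitochondrial DNA, with an adjusted p of 0.119 in the same edgeR test. With the trends removed *Tfam* had 0.14, and the largest value was 0.20 in *Polrmt*.

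*Ppargc1a*, named after its values were seen because it encodes the coactivator PGC-1 alpha, had 137, 149 and 164 CPM in WT and 127, 126, 122 and 109.8 in A178D hearts. The A178D hearts all lay below the WT hearts. Its log2 fold change was -0.31 (SE 0.078) with an adjusted p of 0.0611 (Benjamini-Hochberg, edgeR's quasi-likelihood test), so edgeR did not call it, while DESeq2 did. In the fit without the trends it fell by 0.25 and was called by edgeR, with an adjusted p of 0.0457.

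Promoters of the members were searched for the core letters of these factors on both strands, since the subunit genes are spread over 18 chromosomes. Windows from 250 bases before to 50 after each start came from RefSeq (GRCm38.p6), where 36 of the 48 members matched, 34 of them tested. The NRF1 letters, GCGCA and GCGC with any base (N) between them, occurred in 10 of these 34, or 29.4%, and in 5.19% of 27025 genes. The GABPA letters CCGGAAG occurred in 11, or 32.4%, beside 9.93% of all genes. For ERRA, TCAAGGTCA was found in 2 (5.88%) beside 0.466%, and for YY1, AANATGGCG in 3 (8.82%) beside 2.76%. The SP1 letters GGGGCGGGG were in 7 (20.6%) beside 12.9%, and the MEF2 letters, CTATT followed directly by TATAG, in 0 beside 0.181%. By complex, NRF1 letters were found in 2 promoters of complex II, 1 of complex III, 1 of complex IV and 6 of complex V. The 34 members all passed the count filter, whereas the 27025 genes were taken whether or not they were tested here. Shares over the tested genes alone were not computed, so an excess particular to the members cannot be read from these values. A match describes the letters and does not show that the factor binds.

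The stretches before the start of 4 members are shown, the widely expressed forms *Cox6a1* and *Cox8a* whose groups did not overlap, the heart form *Cox8b*, and *Atp5g3* from the ring of complex V. Bases in capitals belong to a match, on either strand, that lies whole within the stretch. *Cox6a1* lies on the minus strand at chr5:115348982-115349129 and has 2 NRF1 matches, which begin 162 and 117 bases before the start, and GABPA letters that begin 16 bases before the start lie outside the stretch shown. *Cox8a* at chr19:7217617-7217866 and *Cox8b* at chr7:140900447-140900696, both on the minus strand, have no whole match in the stretch shown. GABPA letters of *Cox8a* begin 5 bases before the start, so that their first 5 letters end the stretch, and others lie from 33 to 39 bases after the start. *Atp5g3* at chr2:73911327-73911576, also on the minus strand, has an ERRA match on the opposite strand that begins 52 bases before the start, and NRF1 letters from 13 to 22 bases after the start lie outside the stretch shown.
Cox6a1: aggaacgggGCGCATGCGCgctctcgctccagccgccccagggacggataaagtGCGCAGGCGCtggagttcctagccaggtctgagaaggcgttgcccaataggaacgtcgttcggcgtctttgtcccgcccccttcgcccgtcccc
Cox8a: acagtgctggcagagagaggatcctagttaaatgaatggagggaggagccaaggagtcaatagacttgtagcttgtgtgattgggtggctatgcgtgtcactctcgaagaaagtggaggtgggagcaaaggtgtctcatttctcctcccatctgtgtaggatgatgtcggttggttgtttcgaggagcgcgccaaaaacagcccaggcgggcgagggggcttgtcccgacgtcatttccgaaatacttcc
Cox8b: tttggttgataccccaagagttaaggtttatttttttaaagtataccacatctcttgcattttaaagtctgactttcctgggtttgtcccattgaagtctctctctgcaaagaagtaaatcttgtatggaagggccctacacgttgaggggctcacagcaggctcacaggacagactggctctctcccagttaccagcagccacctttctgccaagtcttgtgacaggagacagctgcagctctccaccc
Atp5g3: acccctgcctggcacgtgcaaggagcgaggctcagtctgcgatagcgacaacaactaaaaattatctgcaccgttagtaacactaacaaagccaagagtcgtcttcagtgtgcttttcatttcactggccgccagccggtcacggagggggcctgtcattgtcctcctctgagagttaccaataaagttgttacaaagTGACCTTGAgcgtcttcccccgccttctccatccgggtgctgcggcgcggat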

How the data were processed

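Raw counts for 7 left ventricle libraries were deposited by the authors, made as stranded poly(A) libraries and sequenced from both ends, and these counts were used without their normalized values. The submitters' notes name bcl2fastq 2.18.0.12, HISAT2 2.1.0, SAMtools 1.6 and DESeq2 1.26.0 on GRCm38. The counting program and its annotation are not given in the sources used here. Names, lengths and GC content came from GENCODE M21. Entries with identical counts were reduced to 1 where they totalled at least 30 counts or repeated the same gene identifier, which left 20927 genes. Of these, 13894 reached 10 counts in 3 or more libraries and were tested with edgeR 4.0.16 (R 4.3.3, TMM, glmQLFit and glmQLFTest, no covariate, two-sided), which was checked on simulated data.

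The second fit used offsets from mgcv 1.9.3 (basis size 6) that take out the smooth relation of counts to transcript length and GC content in each library. Near-identical copies were searched for among the annotated transcripts of other genes, on the same strand and in alignments of at least 100 bases. They share at least 90% of bases over at least 80% of the coding part. Alternatives were DESeq2 1.42.0, its size factors in edgeR, limma-voom (limma 3.58.1), other filters, the table as deposited, the replicate number as a block and leaving out hearts.

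The members and lists were chosen with earlier results of these data known. Values in every heart are given for members with an unadjusted p under 0.05, for the highest, the lowest and the most abundant member of each complex, and for both genes of each isoform ratio. Other lists are given by counts, their largest rise and fall and every called gene.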

Additional observations from a re-analysis of the deposited data

Results flagged for a closer look

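In the values of the named members and the complexes, 26 groups of 4 A178D hearts were looked at for a heart far from the other three, by the gap to its nearest neighbour over the whole range of the group. The gap passed Dixon's limit in 4 of them, always with A178D replicate 4 as the high heart. It had 161 CPM of *Cox8a*, 87.6 CPM of *Cox6a1*, 1775 CPM of *Uqcrc1* and 1949 CPM of *Cox4i1*. Chance marks about 1 in 20 groups, a rate that cannot be set against these 4, since the groups share the same hearts and are not independent. This library also had the steepest slope of counts with transcript length, -0.13 per doubling, and the lowest total, 33080675 counts. The part of either in these values was not tested.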

How the results depend on the processing

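The number of members called was 0 in every alternative, with edgeR, DESeq2 or limma-voom. The number of all genes called higher and lower was 306 and 383 with DESeq2, 219 and 323 after removal of both trends (transcript length and GC content), and 353 and 407 without WT replicate 1 and A178D replicate 4. Leaving out single hearts gave 22 to 215 genes higher and 31 to 238 lower, and WT replicates 3 and 1 gave the lowest and the highest numbers. Members with an unadjusted p under 0.05 were 1 higher and 3 lower after removal of both trends, 0 higher and 2 lower with the length trend alone removed, and 0 to 5 higher and 0 to 1 lower without single hearts. Without WT replicate 1 and A178D replicate 4, an alternative chosen after seeing the data, they were 0 higher and 5 lower, and the medians of complexes II, III, IV and V were -0.057, -0.027, -0.067 and -0.055. After removal of both trends, 10 of the members given with values in every heart changed sign: *Sdhb* to -0.026, *Uqcrc1* to -0.056, *Uqcrh* to -0.10, *Cox6a2* to -0.12, *Cox4i1* to -0.057, *Cox6b1* to -0.033, *Cox7a1* to -0.088, *Cox8b* to -0.081, *Atp5g3* to -0.064 and *Atp5g2* to -0.14. *Sdhd*, given without values in every heart, also changed sign, to -0.025. With the length trend alone removed, the same 10 were at -0.014, -0.042, -0.11, -0.12, -0.045, -0.027, -0.075, -0.065, -0.063 and -0.13. Without WT replicate 1 and A178D replicate 4 they were at -0.039, -0.085, -0.11, -0.15, -0.062, -0.035, -0.048, -0.10, -0.022 and -0.12. Without single hearts *Uqcrc1* ranged from -0.048 to 0.050, *Uqcrh* from -0.047 to 0.10, *Cox6a2* from -0.076 to 0.086, *Cox8b* from -0.027 to 0.17, *Atp5g2* from -0.076 to 0.044, *Sdhb* from 0.012 to 0.13, *Cox4i1* from 0.0034 to 0.11, *Cox6b1* from 0.023 to 0.18, *Cox7a1* from 0.0074 to 0.11, *Atp5g3* from 0.013 to 0.082, *Atp5b* from -0.064 to 0.0089, *Sdha* from -0.13 to -0.043, *Uqcrq* from 0.10 to 0.24, *Cox4i2* from -0.37 to -0.14, *Cox7a2* from 0.10 to 0.26, *Atp5mpl* from 0.083 to 0.23 and *Atp5g1* from 0.069 to 0.19. *Atp5g2* was at -0.0031 with no filter on low counts. Without WT replicate 1 the medians of complexes II and V were -0.015 and -0.012, and that of complex II was -0.013 without A178D replicate 4, -0.00049 without A178D replicate 2 and -0.025 without *Sdhd* and *Cox6b2*, left out after seeing the data. The cause of these changes was not tested. Over all alternatives, 21 of 95 medians, 43 of 459 fold changes of named genes and 0 of 63 ratio differences changed sign. The replicate numbers gave no sign of paired hearts. The correlations of same-numbered hearts were 0.0029, -0.028 and -0.025, and no WT heart correlated best with the A178D heart of its own number. With 3 WT hearts these values cannot show that the numbers mark no pairs. With the number as a block, 124 genes were higher and 147 lower, 7 members were higher at an unadjusted p under 0.05, *Atp5g2* was at -0.011, the median of complexes II to V was 0.10 and that of complex II -0.0092. *Sdhd*, *Cox6b2* and *Cox4i2* had the fewest counts of the tested members, and how far this limits their values was not tested. The absence of mitochondrially encoded counts leaves the core subunits unmeasured.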
